A study of Mus musculus with 6 samples.

Results

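Mir126a and Mir126b are a pair of miRNA genes at one place in the mouse genome, inside Egfl7, which codes for a secreted protein of blood vessels. They are 2 of the 1823 non-coding RNA features listed in at least 1 library, and 910 other miRNA features were listed beside them. The members were picked from the measured values, for higher counts in the maternal knockout (KO) libraries than in the wild-type (WT) libraries, so the difference between the genotypes is given here as a description, with no test. The 2 features were found by matching each feature's position to GENCODE release M21 on the mouse build GRCm38.

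The libraries were 3 KO and 3 WT libraries of small RNA from mouse bone marrow, and the series' design text names lineage-negative cells, the fraction depleted of mature blood cells. Every KO library carried the label Mat KO, at the Dlk1-Gtl2 imprinted locus according to the series' title, and the WT libraries were labelled wildtype. The sources used here do not give the deleted part, the strain, the age or any pooling of animals, nor whether the 3 libraries of a genotype came from separate animals. The fragments cut from the gel had the length of snoRNAs plus adapters. A mature miRNA is shorter than that, so reads at a miRNA feature are described as reads of the precursor's region.

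A miRNA is made as a hairpin within a longer transcript, and the mature strand cut from the hairpin pairs with messenger RNAs through its seed, bases 2 to 8. miR-126 is best known from endothelium, where it supports vessel growth and integrity through growth factor signalling. In blood it marks stem and progenitor cells and restrains their entry into the cell cycle by dampening signalling through PI3 kinase and AKT. The mature strands themselves, and the Egfl7 messenger RNA, were not measured here.

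Mir126a lies on the plus strand of chromosome 2, 26591357 to 26591429, and Mir126b on the minus strand at 26591363 to 26591420 (GRCm38). Both fall between exons 7 and 8 of the main Egfl7 transcript, Egfl7-201, on whose strand Mir126a lies, and within exon 4 of the retained-intron transcript Egfl7-206. The sequences are shown for the overlap of the 2 features. They are from RefSeq on GRCm38.p6, 5′ to 3′, with the mature strands that RefSeq lists in capitals in the hairpins, and the seed in capitals in the mature strands.
Mir126a hairpin: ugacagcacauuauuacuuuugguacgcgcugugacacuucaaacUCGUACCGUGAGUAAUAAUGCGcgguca
Mir126b hairpin: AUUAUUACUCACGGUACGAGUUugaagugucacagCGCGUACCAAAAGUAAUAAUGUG
miR-126a-3p: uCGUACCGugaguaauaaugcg
miR-126b-5p: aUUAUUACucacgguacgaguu
miR-126b-3p: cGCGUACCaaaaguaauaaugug
The Mir126b hairpin of 58 nt is the exact reverse complement of bases 7 to 64 of the Mir126a hairpin of 73 nt. miR-126a-3p and miR-126b-5p overlap by 19 bases on opposite strands. For Mir126a only miR-126a-3p is listed, so a strand from the other arm of its hairpin was not compared. Among the 1738 mature strands of the RefSeq table, no other shares the seed of any of these 3 strands.

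**Figure D1:**
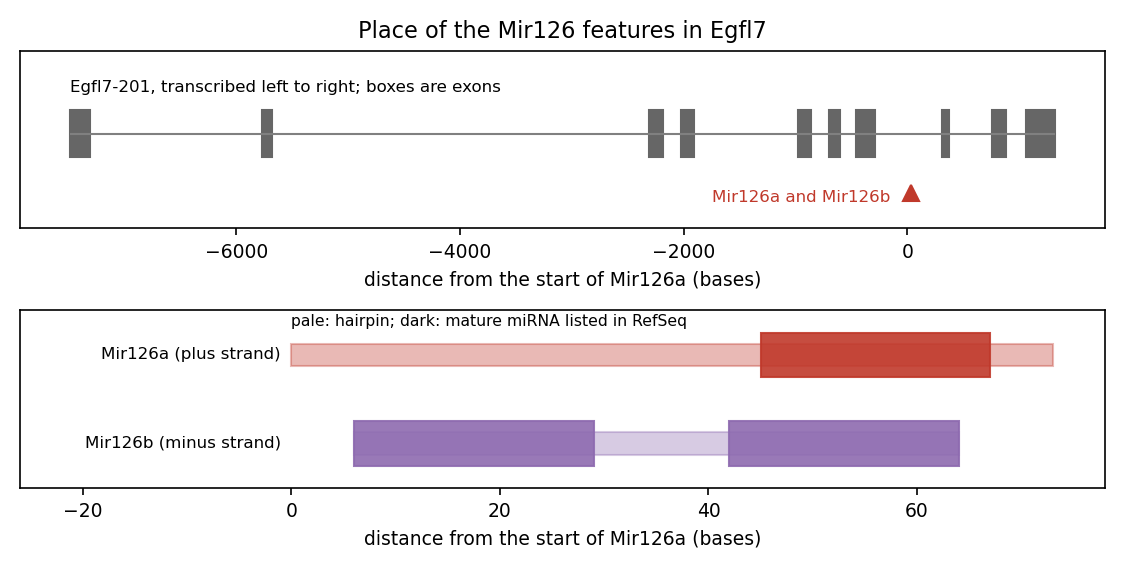
Place of the features in Egfl7. The upper panel draws the exons of Egfl7-201 as boxes against the distance in bases from the start of Mir126a, and the triangle marks both features between exons 7 and 8; the lower panel enlarges them, with hairpins pale and the mature strands listed in RefSeq dark. Mir126b, 58 nt long, lies wholly within the span of Mir126a, 73 nt long, on the other strand.

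Mir126a held nearly all of the reads of the pair. The reads at Mir126b numbered 0, 1 and 1 in KO replicates 1 to 3, against 0, 1 and 1 reads in WT replicates 1 to 3. A count of 0 allows up to 0.0619 CPM in KO replicate 1 and up to 0.0563 CPM in WT replicate 1, taking 3 counts as the floor. CPM is the count scaled for the depth of its library. Both genotypes are at or under that floor, so no fold is given for Mir126b, and its counts showed no higher KO level. Of the 1940 reads of the pair in the 6 libraries, 4 were at Mir126b, a share of 0.206% (95% Clopper-Pearson interval 0.0562% to 0.527%, which covers counting error only).

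That share set the pair apart from those other miRNA features overlapping on opposite strands that had at least 100 reads. GENCODE has 29 such pairs, with at least 80% of the shorter feature covered and different ends, and in 10 of them the feature with more reads had at least 100. In 9 of the 10 the partner held over 10% of the reads, and the tenth was the Mir126 pair. Pairs with fewer reads were not all even: Mir219a-1 had 19 reads and its partner Mir219c 0. The smallest share of the 9 was 42.3%, for Mir142 beside Mir142b, with 530 and 724 reads, and the largest 49.9%, for Mir1b beside Mir1a-2, with 284 and 285 reads. Mir24-1 and Mir3074-1, another such pair, had 246 and 248 reads. Reads of those 9 pairs were divided nearly evenly between the features of each pair, and the reads of the Mir126 pair were not. The sources used here do not say how strands and reads with several matches were counted, so the strand that the Mir126a reads came from cannot be read from these counts.

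Mir126a was higher in each KO library than in any WT library, by a narrow margin at the edge. The feature had 274, 394 and 821 reads in KO replicates 1 to 3, against 29, 245 and 173 reads in WT replicates 1 to 3. As levels these were 5.65, 7.60 and 17.4 CPM in the KO libraries, against 0.544, 5.40 and 3.41 CPM in the WT libraries. KO replicate 3 stood highest and WT replicate 1 far below the other 5. The lowest KO library was 1.05 times the highest WT library, and the upper counting bound of WT replicate 2, 6.12 CPM, lay above the level of KO replicate 1 (95%, exact Poisson).

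**Figure D2:**
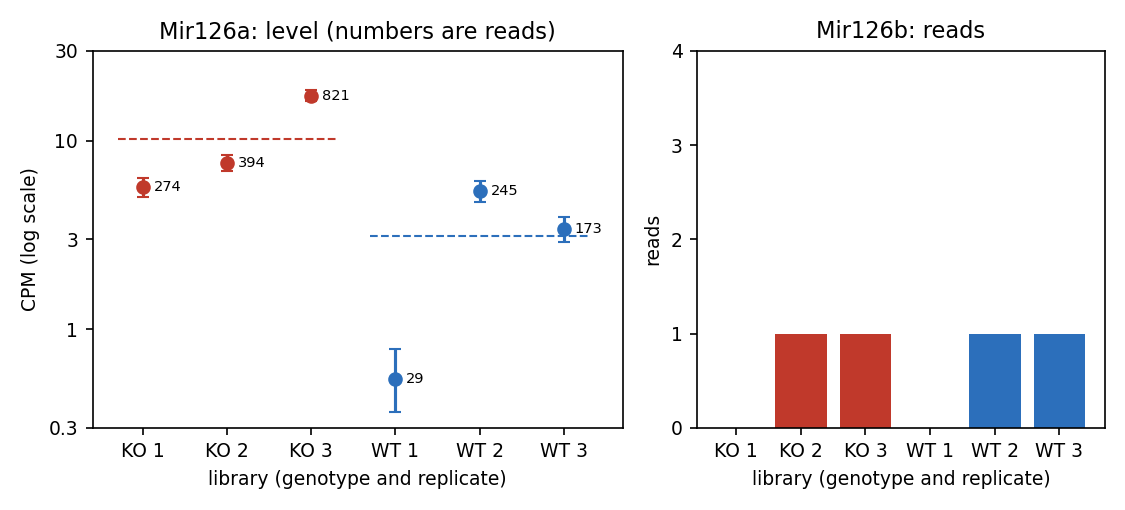
Reads and levels of the 2 features in each library. The left panel gives Mir126a in CPM on a log axis, with exact 95% Poisson intervals, read counts beside the points and the mean of each genotype as a dashed line; the right panel gives the reads of Mir126b. The KO points of Mir126a lie between 5.65 and 17.4 CPM and the WT points between 0.544 and 5.40 CPM, while Mir126b has 0 or 1 read in every library.

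Mir126a averaged 10.2 ± 6.3 CPM over the KO libraries, against 3.12 ± 2.44 CPM over the WT libraries (mean ± SD, n = 3 each), a 3.27-fold ratio of means. The ratio of the medians, 7.60 CPM for the KO libraries and 3.41 CPM for the WT libraries, was smaller, at 2.23-fold. The fitted log2 fold change, KO over WT by edgeR, was 1.75 with a standard error (SE) of 0.80. No p-value is attached, because the rule used this contrast. In bulk libraries more cells of a type and more RNA per cell cannot be told apart.

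A pair of libraries carried much of the size of that difference. Without KO replicate 3 the ratio of means was 2.13-fold, and without WT replicate 1 it was 2.32-fold. Leaving out WT replicate 2 gave 5.16-fold. The fitted log2 fold change was 1.23 with KO replicate 3 left out, 1.34 with WT replicate 1 left out and 2.47 with WT replicate 2 left out. The choice of a feature whose groups do not overlap fixes the sign of these values, so a shared sign is no measure of stability.

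Mir126a varied more within a genotype than most precursors of its level. The SD of its log2 CPM was 0.84 among the KO and 1.75 among the WT libraries. It was compared with the 29 other tested features named Mir, outside the Dlk1-Dio3 region, whose mean level lay within 1 log2 unit of it. These had a median SD of 0.49 among the KO and 0.54 among the WT libraries. Of the 29, 1 varied at least as much as Mir126a among the KO libraries and none did among the WT libraries, where their highest SD was 1.16. The highest KO library had 3.07 times the level of the lowest KO library, and the highest WT library 9.92 times that of the lowest.

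Per length, Mir126a stood among the more abundant precursors of these libraries. It was ranked by reads per nucleotide among the features named Mir with at least 1 read, leaving out the Dlk1-Dio3 region. It was 35 of 283, 35 of 327 and 18 of 288 in KO replicates 1 to 3, against 92 of 280, 44 of 298 and 44 of 310 in WT replicates 1 to 3. Its reads equalled 0.264%, 0.204% and 0.584% of the reads of all other such features outside the Dlk1-Dio3 region in KO replicates 1 to 3, against 0.0335%, 0.144% and 0.159% in WT replicates 1 to 3. The lowest KO share was above the highest WT share, but these are the counts behind the choice of Mir126a, so nothing is read from that.

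The libraries held 45398303 to 53299322 counts and 1176 to 1308 listed features each. Replicates of a genotype differed by far more than sampling noise, with a chi-square per degree of freedom of 530 to 3308 in the 6 pairs, so none was counted as a repeat of another. A pair of libraries stood apart in the miRNA features. Of the 147 features named Mir that were tested, leaving out the locus and both members, 100 had their highest log2 CPM, scaled by TMM (edgeR's correction for library composition), in KO replicate 2 and 96 their lowest in WT replicate 1. Relative to the mean of the 6 libraries, the median log2 level of these features was -0.17, 0.66 and 0.04 in KO replicates 1 to 3, against -0.65, 0.35 and -0.23 in WT replicates 1 to 3. On the same scale Mir126a was at 0.42, 0.83 and 1.90 in KO replicates 1 to 3, against -2.98, 0.24 and -0.41 in WT replicates 1 to 3.

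Over all features the genotypes were compared with edgeR's quasi-likelihood test. Of 624 features tested, 1 was called at an adjusted p under 0.05 (Benjamini-Hochberg), or 0.160%. This was DQ267100, a snoRNA of the Dlk1-Gtl2 locus itself, which checks the labels: its reads were 2, 0 and 1 in KO replicates 1 to 3, against 59, 51 and 52 in WT replicates 1 to 3. No miRNA feature was called. All KO libraries lay above all WT libraries for 17 features, or 2.72%, of which Mir126a was 1. That separation was among the values behind its choice, and nothing is read from it. By fitted log2 fold change Mir126a was the 3rd highest of the 624, after Mir342 with 1.86 and Mir363 with 1.79. The median log2 fold change was -0.08 over all features, 0.37 over the 147 features named Mir and 0.02 over 118 features of other kinds with a like length (65 to 81 nt).

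**Figure D3:**
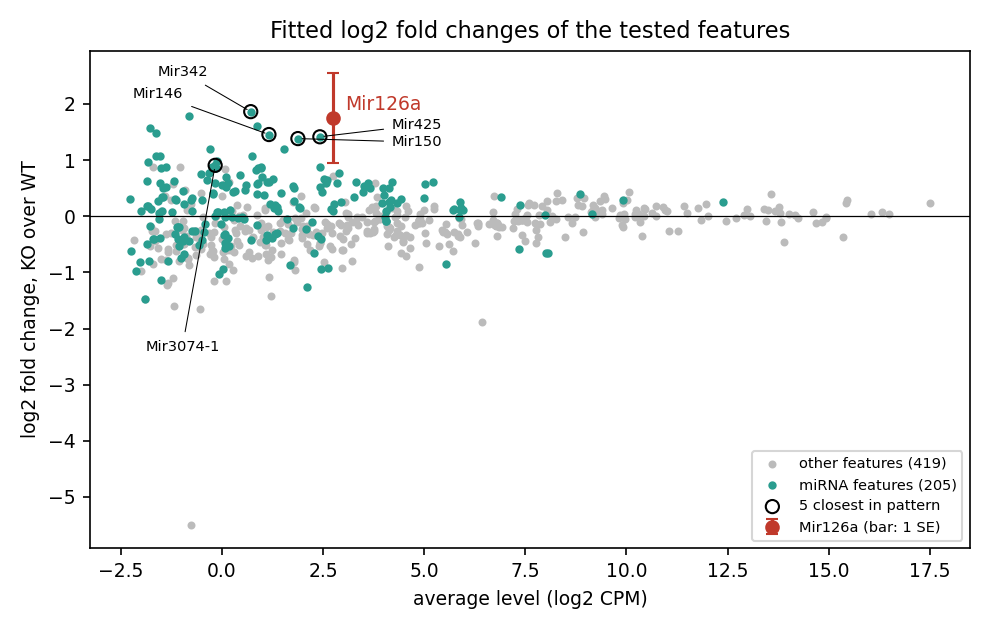
Fitted log2 fold changes, KO over WT, against the average level in log2 CPM. Each point is 1 of the 624 tested features; miRNA features are green, other features grey, Mir126a red with a bar of 1 SE, and rings mark the 5 miRNA features closest to it in pattern. Mir126a, at 1.75, is the 3rd highest, and 133 of 204 other green points lie above 0, against 121 of 419 grey points.

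Fitted values of the miRNA features varied with the libraries included. Of the 147 features named Mir, 119 had a fitted log2 fold change above 0. Without KO replicate 2 alone 94 of 147 had, with a median log2 fold change of 0.18, and without WT replicate 1 alone 113 of 147 had, with a median of 0.24. Without both, a choice made after the data were seen, 56 of 146 had, and the median was -0.14. Those were the libraries in which most of these features were highest or lowest, so leaving them out had to lower the count. Mir126a had a fitted log2 fold change of 1.39 (SE 0.59) in those 4 libraries. With library sizes set to the summed counts of the other features named Mir, also chosen after the data were seen, it was 1.64 (SE 0.66).

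The summed level of the other miRNA features did not separate the genotypes. All 881 features that GENCODE types as miRNA, outside the members and the Dlk1-Dio3 region, summed to 10191 ± 1316 CPM over the KO libraries, against 9419 ± 854 CPM over the WT libraries (mean ± SD, n = 3 each; exact two-sided permutation test p = 0.4). A feature carrying the name Snord43 held 54.9% of those reads. The 451 features named Mir summed to 2950 ± 794 CPM over the KO libraries, against 2502 ± 1104 CPM over the WT libraries (mean ± SD, n = 3 each; exact two-sided permutation test p = 0.7). The smallest p that 3 libraries against 3 allow is 0.1.

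Among 204 tested miRNA features, 5 were closest to Mir126a in their pattern over the 6 libraries. Likeness was the root mean square difference of their log2 levels, each taken relative to its own mean, and these 5 lay within 0.52 to 0.61 log2 units, against a median of 1.36 for all 204. They were Mir146, Mir150, Mir425, Mir342 and Mir3074-1, and the next, Mir363, was at 0.76. All 5 were lowest in WT replicate 1, as Mir126a was. The likeness is over 6 libraries that share the contrast used to pick Mir126a, so it is a description.

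Mir146, the gene of miR-146a, a brake on inflammatory signalling, had 141, 181 and 143 reads in KO replicates 1 to 3, against 7, 94 and 71 reads in WT replicates 1 to 3. Mir150, whose miRNA is abundant in mature lymphocytes, had 194, 279 and 288 reads in KO replicates 1 to 3, against 37, 145 and 116 reads in WT replicates 1 to 3. Mir342, in an intron of Evl on chromosome 12 (108658620 to 108658718), had 127, 138 and 96 reads in KO replicates 1 to 3, against 6, 57 and 38 reads in WT replicates 1 to 3. For these 3 the genotypes did not overlap in CPM. Mir146 and Mir342 had their highest KO level in KO replicate 2, and Mir150 in KO replicate 3.

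Mir425, on chromosome 9 (108568777 to 108568861), had 246, 421 and 455 reads in KO replicates 1 to 3, against 64, 229 and 134 reads in WT replicates 1 to 3, and its genotypes did not overlap in CPM by a narrow margin (5.07 CPM in KO replicate 1 and 5.04 CPM in WT replicate 2). Mir3074-1 had 31, 52 and 78 reads in KO replicates 1 to 3, against 9, 49 and 29 reads in WT replicates 1 to 3. It overlaps Mir24-1 on the other strand and shares its reads almost evenly, so its count is uncertain, and its genotypes overlapped. None of the 5 was called by edgeR over all features: the log2 fold changes were 1.46 (SE 0.80) for Mir146, 1.38 (SE 0.54) for Mir150, 1.42 (SE 0.53) for Mir425, 1.86 (SE 0.72) for Mir342 and 0.91 (SE 0.65) for Mir3074-1, with adjusted p-values from 0.710 to 0.733. DESeq2 called none of them either.

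The mature strands that RefSeq lists for these 5 genes, shown for comparison with the strands of the Mir126 pair, had no seed in common with it or with each other.
miR-146a-5p: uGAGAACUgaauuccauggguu
miR-146a-3p: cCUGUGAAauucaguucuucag
miR-150-3p: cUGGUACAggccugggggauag
miR-425-5p: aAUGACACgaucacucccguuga
miR-425-3p: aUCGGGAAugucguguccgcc
miR-342-5p: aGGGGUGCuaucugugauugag
miR-342-3p: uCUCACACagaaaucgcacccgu
miR-3074-5p: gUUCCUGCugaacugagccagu
With the 3 strands above they made 11 mature strands with 11 different seeds. Strands of these hairpins that RefSeq does not list were not compared, and for Mir150 only miR-150-3p is listed.

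**Figure D4:**
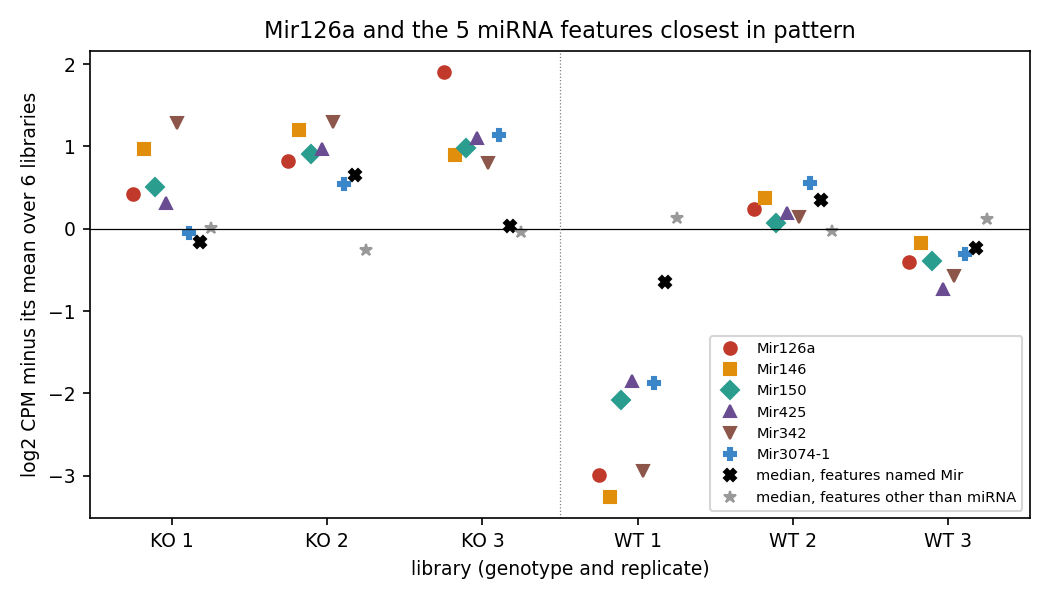
Levels by library of Mir126a and the 5 miRNA features closest to it in pattern, as log2 CPM minus the mean of the 6 libraries; black crosses are the median of 147 features named Mir and grey stars the median of features other than miRNA. Mir126a stands at -2.98 in WT replicate 1, where the median of the features named Mir is -0.65, and at 1.90 in KO replicate 3, where that median is 0.04.

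Marker miRNAs of the cells that such a marrow fraction could hold were set beside Mir126a. Of the listed markers other than the members, 42 were tested, 37 of them with a positive and 5 with a negative estimate, KO over WT, and with a median log2 fold change of 0.43. None was called by edgeR or by DESeq2, 3 had an unadjusted p under 0.05 by edgeR, and the lowest adjusted p by edgeR was 0.700, for Mir125a. Of all features tested, edgeR called 0.160%. All KO libraries lay above all WT libraries for 4 of the 42, or 9.52%, against 2.72% of all features and 5.44% of the 147 features named Mir. Of those 147, 119 had a positive estimate.

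As a sum, endothelial miRNAs, of the vessel cells that Mir126a also marks, did not separate the genotypes. Their summed level was 66.5, 100.6 and 79.9 CPM in KO replicates 1 to 3, against 46.0, 87.5 and 63.3 CPM in WT replicates 1 to 3. KO replicate 2 was the highest KO library, unlike for Mir126a, while the WT libraries had the same order as for Mir126a. All 19 listed members had reads and 15 were tested, 14 with higher estimates, none of them called, and with a median log2 fold change of 0.50. For 1 of the 15, Mir24-2, all KO libraries lay above all WT libraries in CPM, against 2.72% of all features. Mir24-2 shares its reads almost evenly with Mir3074-2 on the other strand, so its count is uncertain. With 1 library left out 11 to 15 of the 15 had an estimate above 0, the 11 without KO replicate 2, and 8 had without both KO replicate 2 and WT replicate 1. The log2 fold changes were 0.24 (SE 0.28) for Mir92-1, 0.50 (SE 0.38) for Mir221, an endothelial and progenitor miRNA, 0.60 (SE 0.37) for Mir20a and 0.60 (SE 0.36) for Mir17. Mir17, Mir20a and Mir92-1 belong to one cluster that progenitor cells also express.

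As a sum, primitive haematopoietic miRNAs, of the stem and progenitor cells that Mir126a marks, overlapped between the genotypes as well. Their summed level was 67.5, 98.9 and 76.6 CPM in KO replicates 1 to 3, against 57.7, 111 and 69.3 CPM in WT replicates 1 to 3. WT replicate 2 was the highest of all. Most of each sum came from Mir10a, so the sums say little about the other listed members. Mir10a had 53.9, 64.6 and 61.6 CPM in KO replicates 1 to 3, against 38.2, 85.1 and 50.7 CPM in WT replicates 1 to 3. Of 18 listed members 13 were tested, 9 with a positive and 4 with a negative estimate and none called, with a median log2 fold change of 0.22. For 2 of the 13, Mir125a and Mir146, all KO libraries lay above all WT libraries in CPM, against 2.72% of all features. Mir146 is also among the features closest to Mir126a in pattern. With 1 library left out 6 to 11 of the 13 were above 0, the 6 without WT replicate 1, where the median was -0.02. Without KO replicate 2 as well it was -0.27, with 4 of 13 above 0. Mir10a, from a Hox cluster, had a log2 fold change of 0.11 (SE 0.31), Mirlet7c-1 of -0.36 (SE 0.42), Mir99a of 0.66 (SE 0.66) and Mir100 of -1.26 (SE 1.10). Without KO replicate 2 the last 2 were -0.42 for Mir99a and -3.83 for Mir100, neither called.

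Mature lineages were represented by the myeloid, lymphoid and erythroid lists, and none of their members was called. All 4 tested myeloid and all 4 tested erythroid features had an estimate above 0, with 6 libraries and with any 1 left out; without both KO replicate 2 and WT replicate 1, 2 of 4 myeloid and 3 of 4 erythroid features had. The myeloid list had 795, 1271 and 1131 CPM in KO replicates 1 to 3, against 523, 1454 and 751 CPM in WT replicates 1 to 3, nearly all from Mir21a. The log2 fold changes were 0.29 (SE 0.38) for Mir21a, 0.51 (SE 0.35) for Mir223, which marks granulocytes and monocytes, 0.21 (SE 0.30) for Mir142b and 0.60 (SE 0.31) for Mir142, and the last 2 overlap on opposite strands.

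The lymphoid list had 21.3, 50.1 and 28.8 CPM in KO replicates 1 to 3, against 17.0, 33.8 and 23.9 CPM in WT replicates 1 to 3. Of its 5 tested members all had estimates above 0, also without any 1 library other than KO replicate 2. Without KO replicate 2, 2 of 5 had, and 1 of 5 without WT replicate 1 as well. Besides Mir150, the log2 fold changes were 0.43 (SE 0.47) for Mir181a-1, 0.34 (SE 0.43) for Mir181a-2 and 0.41 (SE 0.40) for Mir181b-2.

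The erythroid list had 4.31, 9.78 and 4.16 CPM in KO replicates 1 to 3, against 2.05, 3.41 and 4.79 CPM in WT replicates 1 to 3. The log2 fold changes were 1.20 (SE 0.62) for Mir451a, 1.06 (SE 0.60) for Mir144, 0.42 (SE 0.39) for Mir486 and 0.39 (SE 0.46) for Mir3107, which overlaps Mir486 on the other strand. Mural cell miRNAs of vessel walls had 1.16, 2.20 and 1.27 CPM in KO replicates 1 to 3, against 0.525, 1.59 and 1.14 CPM in WT replicates 1 to 3, with 1 tested member, Mir143 (log2 fold change 0.45, SE 0.48).

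The list of striated muscle miRNAs, put together once the data had been seen, marked KO replicate 2. The 8 listed features summed to 0.144, 19.9 and 0.338 CPM in KO replicates 1 to 3, against 0.150, 0.639 and 0.492 CPM in WT replicates 1 to 3. Mir1a-1 had 2, 258 and 7 reads in KO replicates 1 to 3, against 3, 7 and 9 reads in WT replicates 1 to 3. Mir133a-2 was counted 0, 116 and 1 times in KO replicates 1 to 3, and had no read in any WT library. In KO replicate 2, Mir1a-2 and Mir1b had 262 and 256 reads, close to Mir1a-1, and Mir133a-1 had 118, close to Mir133a-2. These counts are therefore uncertain singly, and the features are not taken as separate observations. None of the 8 passed the filter on low counts. KO replicate 2 was not the library with the most Mir126a, and without it the Mir126a ratio of means was 3.69-fold and the fitted log2 fold change 1.99 (SE 0.90).

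**Figure D5:**
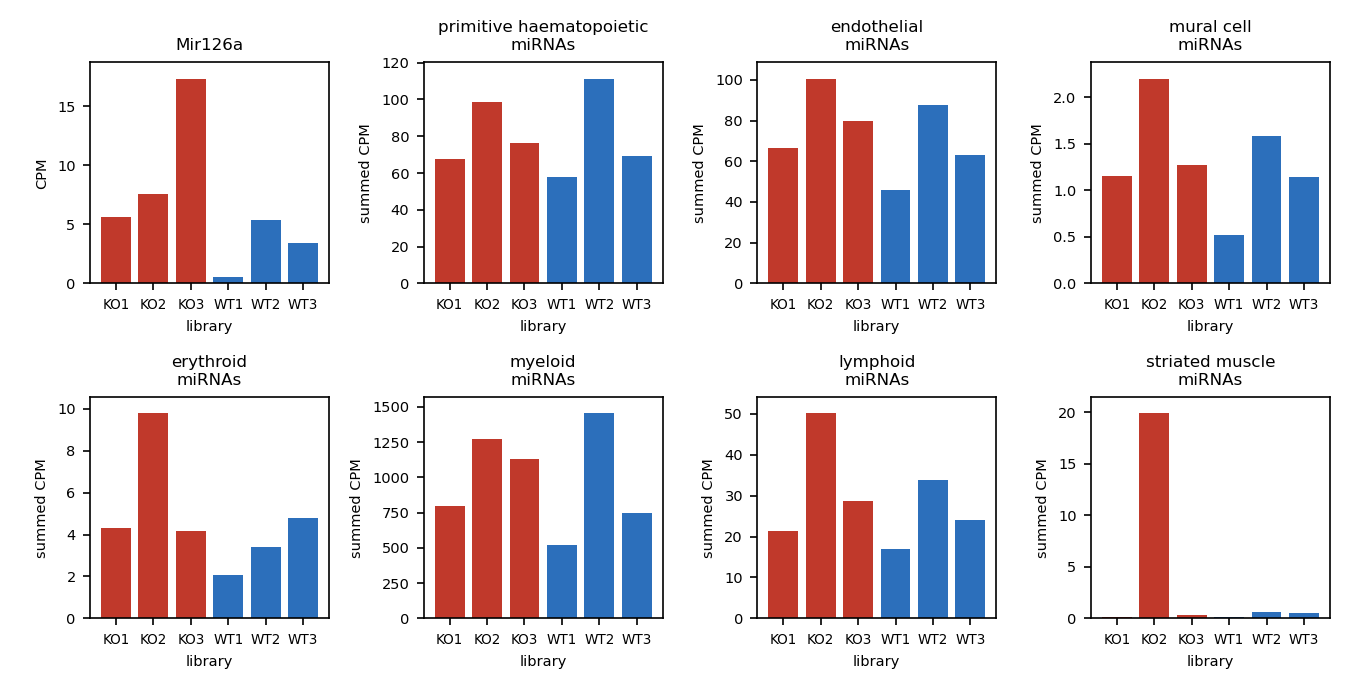
Level of Mir126a and summed levels of the marker lists in each library, in CPM with a separate axis from 0 in each panel; KO libraries are red and WT libraries blue. KO replicate 3 has the highest Mir126a bar, at 17.4 CPM, but in no list is it the highest library, and the striated muscle bar of KO replicate 2, at 19.9 CPM, has no counterpart in the other 5 libraries.

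The features around Egfl7 were set beside Mir126a too. Within 1 Mb of Mir126a on chromosome 2, 9 features other than the members were listed and 7 were tested. Of the 7, 3 had an estimate above 0, and the median log2 fold change was -0.03. None had an unadjusted p under 0.05 by edgeR. None was called, against 0.160% of all features tested, so nothing is read from that. The nearest, a pair of overlapping features both named Snora43 whose counts are uncertain singly, start 46490 and 46491 bases downstream and had log2 fold changes of -0.54 (SE 0.32) and 0.11 (SE 0.31). Snora17, which guides pseudouridylation as an H/ACA snoRNA, averaged 11.4 ± 0.6 CPM over the KO libraries, against 12.7 ± 0.5 CPM over the WT libraries (mean ± SD, n = 3 each; log2 fold change -0.09, SE 0.20). The 3 snoRNAs in Rpl7a, a ribosomal protein gene, had log2 fold changes of -0.03 (Gm23969, SE 0.17), 0.13 (Gm22879, SE 0.10) and 0.11 (Gm24134, SE 0.10), and the farthest, Gm25541, of -0.51 (SE 0.47). Adjusted p-values of the 7 by edgeR ran from 0.730 for the longer Snora43 feature to 0.971 for Gm23969.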

How the data were processed

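The authors deposited 1 table of read counts per library, 6 in all, listing features by position with at least 1 read; an unlisted feature was set to 0. The build GRCm38 and the tools Bowtie2 2.3.4.1 and Trimmomatic 0.38 are named, per the submitters' processing notes; the sources used here do not give the counter, the strand setting or the treatment of reads with several matches. Features were matched to GENCODE M21 by start and end (1822 of 1823).

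The counts were tested with edgeR 4.0.16 in R 4.3.3: quasi-likelihood test, TMM, default filter (minimum count 10, minimum total 15), KO against WT, two-sided, Benjamini-Hochberg adjustment over 624 features, threshold 0.05. SEs are approximate, taken from the fitted log2 fold change and its F statistic. DESeq2 1.42.0, other scalings and filters, a replicate block and left-out libraries were alternatives. Patterns used log2 CPM with a prior count of 2. The edgeR script was checked on simulated data. p-values measure the spread between libraries, which may be technical.

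The members and lists were chosen with earlier results of these data known. Named are the members, the 5 closest miRNA features, tested features within 1 Mb, and up to 4 most abundant tested members of each list; DQ267100, Mir363, Mir125a, the antisense pairs and the muscle miRNAs were named after their values were seen.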

Additional observations from a re-analysis of the deposited data

How the results depend on the processing

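The fitted log2 fold change of Mir126a, 1.75, lay between 1.23 and 2.47 with any 1 library left out. Under 9 other settings it lay between 1.39 and 2.11, the replicate block giving 2.11. All differed from 1.75 by less than its pooled within-genotype SD of 1.37. That SD is the wide spread of single libraries, so staying within it is no measure of stability. RLE size factors moved the median of all features from -0.08 to 0.02 and Mir126a to 1.85, and library size alone gave -0.16 and 1.71. Mir126b has no fold under any setting, since both genotypes are at or under the floor of 3 counts.

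The number of features called was 13 with no filter, 0 with the replicate block, 0 without KO replicate 2 and WT replicate 1 (added after the data were seen) and 0 to 1 with any 1 library left out, against 1 in the test as reported; the cause was not tested. It was 1 under the other settings. No marker of the lists used in the report was called under any setting run, apart from the striated muscle list, 5 of whose 8 features were among the 13 called with no filter. Members of that list had near-equal counts, so the 5 are not taken as separate observations. The log2 ratio of the summed other miRNA features, 0.11, stayed above 0 under every alternative, from 0.03 to 0.21 with 1 library left out. Replicate numbers are shared by the genotypes, but 2 of 6 libraries correlated best with their own number, so they are not taken as pairs.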

Other observations

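Besides Mir126a, 8 of the 147 tested features named Mir had all KO libraries above all WT libraries in CPM (5.44%, against 2.72% of all 624 features tested): Mir125a, Mir425, Mir150, Mir342, Mir24-2, Mir149, Mir107 and Mir146. They were chosen after their values were seen, and edgeR called none of them over all features. In CPM all 8 were lowest in WT replicate 1, and 5 of the 8 were highest in KO replicate 2 and 3 in KO replicate 3. Mir125a, which marks stem cells, had 17, 25 and 13 reads in KO replicates 1 to 3, against 3, 10 and 6 reads in WT replicates 1 to 3. Mir125a and Mir146 are on the primitive haematopoietic list, of whose 13 tested members 9 had a positive and 4 a negative estimate. Mir107 had 35, 51 and 34 reads in KO replicates 1 to 3, against 21, 32 and 21 reads in WT replicates 1 to 3. Mir24-2 overlaps Mir3074-2 on the other strand, with 255 and 250 reads in all, so its count is uncertain. Mir3074-2 had 39, 63 and 58 reads in KO replicates 1 to 3, against 16, 52 and 22 reads in WT replicates 1 to 3, and its genotypes overlapped in CPM.

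Mir100, a relative of Mir99a, varied widely among the KO libraries. It had 14, 335 and 24 reads in KO replicates 1 to 3, against 492, 228 and 220 reads in WT replicates 1 to 3. KO replicate 2 lay among the WT libraries, and KO replicates 1 and 3 far below them.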
